A study of Arabidopsis thaliana with 6 samples.

Results

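The genes that encode the proteins of the cytosolic ribosome were compared between shoots of wild-type (WT) and phod1 mutant seedlings of Arabidopsis thaliana by RNA-seq. The genes were chosen as a list of 60 locus identifiers, of which 31 encode proteins of the large subunit (the RPL genes and the stalk protein P0) and 29 encode proteins of the small subunit (the RPS genes and RPSa). The count table holds 21693 genes, and 57 of the 60 have a row in it, 30 large and 27 small. AT2G44120 (protein L7), AT2G41840 (protein S2) and RPS15 (AT1G04270) were not analysed here. The 60 genes belong to 31 protein families, 16 large and 15 small, and carry the eukaryotic protein numbers here, while the reference annotation names some products after the universal family (S9 as a protein of the S4 family).

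Each genotype was sampled as 3 libraries from shoots that were 8 days old. Both genotypes grew under the same nutrient-rich conditions, at 23 °C on 1/2 MS (Murashige and Skoog) plates with 1.0% sucrose and 1.1% agar, lit for 16 h and dark for 8 h each day. The labels name neither the gene nor the allele behind phod1, so the genotype of the libraries could not be checked on a mutated gene. Nothing in the labels says that the libraries came from separate cultures, so p-values cover only the spread among these 6 libraries, which may be technical. The deposited estimated counts summed to between 33183463 and 54720319 units per library, with about 4 units to a fragment, so that a floor of 3 fragments lay at 0.256 to 0.404 CPM (counts scaled to library size). Floors cover counting error only. The quasi-likelihood test of edgeR was run on 10803 genes, and genes with a Benjamini-Hochberg adjusted p under 0.05 are named called. Of these genes 1581 were higher and 1407 lower in phod1, against 3544 higher and 618 lower when library totals alone set the scale. That other scale shifted the median log2 fold change of all genes from 0.01 to 0.39. All 4 tested leaf markers were abundant, at 5625 to 67918 CPM, and all 4 were called lower in phod1. PYK10, a gene of roots and of the hypocotyl, stood at 210 to 277 CPM in the 6 libraries, and the other 5 root markers were at or under 0.773 CPM.

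The cytosolic ribosome translates the messages of nuclear genes. Its small subunit binds and scans the message, and its large subunit joins amino acids and holds the exit tunnel of the new protein. Nearly every protein is present in a single copy per ribosome, and in Arabidopsis each is encoded by a small family of paralogs whose products are nearly alike. Transcript levels of these genes are known to be high in growing and dividing tissue, to respond to sugar and to the TOR kinase, and to be set in part by short promoter motifs, the site II elements and the telo-box.

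Many cytosolic ribosomal protein transcripts were more abundant in phod1 shoots than in WT shoots. Of the 57 genes, 33 were called higher in phod1 (57.9%, where 14.6% of all genes tested were called higher) and 0 were called lower (where 13.0% of all genes were). At an unadjusted edgeR p under 0.05, 40 were higher and 0 lower. No share over all genes was taken at that threshold, so these counts have nothing to be read against. DESeq2 called 37 higher and 0 lower, where it called 16.0% of all genes higher and 15.3% lower. The authors' deposited table of their own comparison lists 37 of the 57 genes, all of them higher in phod1. Their log2 fold changes run from 0.35 to 3.18, and each has an adjusted p under 0.05 there, so being listed means being called. The authors compared the same 6 libraries, so the list is not separate support, and no share over all genes was taken from it. The median log2 fold change of the 57 genes was 0.71 and ranged from -0.34 to 3.19, beside 0.01 over all genes tested. With library totals as the scale, the median of the 57 genes lay 0.70 above that of all genes, as it did with TMM. A change of scale moves all genes nearly alike, so this gap cannot show whether the rise depends on the scale.

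Among the 33 genes called higher the log2 fold change ran from 0.48 to 3.19, with a median of 0.79. Of the 57 genes, 7 were called and rose at least 2-fold, where 6.93% of all genes tested did so. In 44 of the 57 genes every phod1 library was above every WT library (24.7% of all genes tested), and in 0 was every phod1 library below every WT library (22.9%). The fitted change was above 0 in 54 genes and below 0 in EMB1080 (protein S11), RPL23AA (protein L23a) and RPS5A (protein S5), none of which was called. Summed over the 57 genes, the share of all deposited counts was 0.571%, 0.545% and 0.545% in WT 1 to 3 and 1.12%, 1.13% and 1.31% in phod1 1 to 3. The summed level rose less in CPM, from 6352 ± 343 in WT to 10419 ± 1248 in phod1 (SD, n = 3 each), with TMM factors of 0.857 to 0.907 for the WT libraries and 1.10 to 1.17 for the phod1 libraries.

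**Figure D1:**
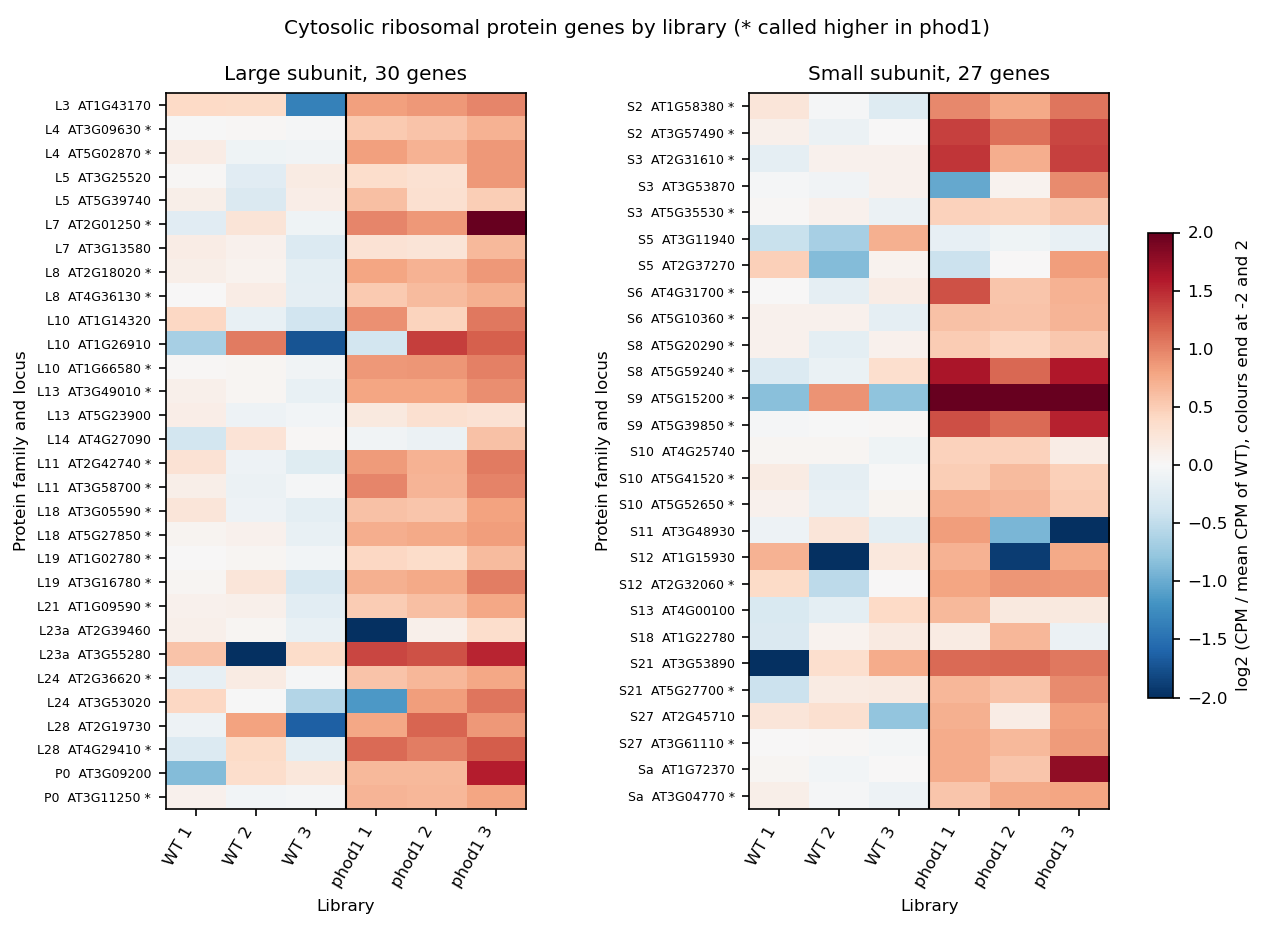
Level of each of the 57 genes in each library as log2 of its CPM over the mean CPM of the 3 WT libraries (colour, which ends at -2 and 2), with large subunit genes on the left, small subunit genes on the right and an asterisk at the 33 genes called higher in phod1. The phod1 columns are red for most genes, while dark blue cells mark single libraries far below the others of the gene, such as WT 1 for AT3G53890 and phod1 3 for AT3G48930 (EMB1080).

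Large and small subunit genes were called higher in like proportion. Among large subunit genes 17 of 30 were called higher (56.7%), the median log2 fold change was 0.78 and every phod1 library was above every WT library in 25. Among small subunit genes 16 of 27 were called higher (59.3%), the median was 0.64 and the libraries were separate in this way in 19. Large subunit genes held 70.6%, 72.7% and 66.2% of the summed CPM of the 57 genes in WT 1 to 3 and 69.0%, 70.2% and 69.9% in phod1 1 to 3. The phod1 values lay within the range of the WT values, so the balance between the subunits did not differ beyond the spread of the WT libraries. The spread of the changes was wider among small subunit genes, where the middle of the distribution ran from 0.36 to 1.02 between its quartiles, against 0.55 to 0.89 among large subunit genes.

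**Figure D2:**
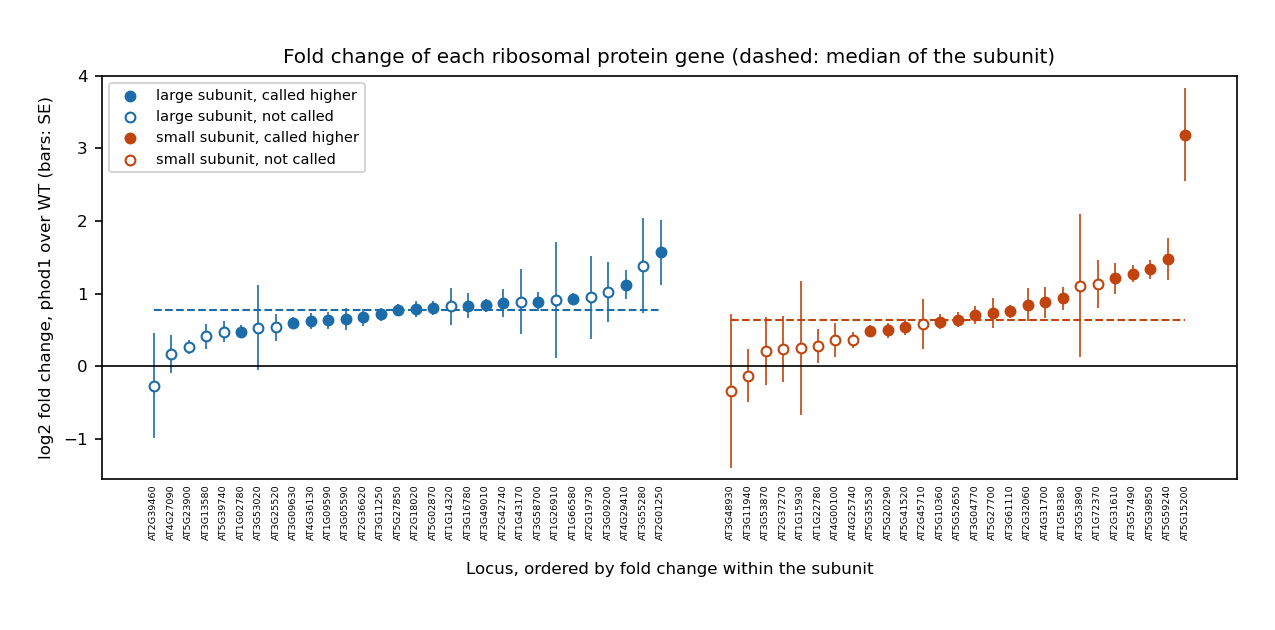
Log2 fold change of phod1 over WT for each gene, ordered within the large subunit (blue) and the small subunit (orange), with bars for the SE, filled points for genes called higher and dashed lines at the subunit medians of 0.78 and 0.64. Large subunit genes end at 1.57 (AT2G01250), while AT5G15200 of the small subunit stands apart at 3.19.

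Levels were also set per kilobase of the longest annotated transcript of each gene. On that scale the most abundant of the 57 genes in WT were AT5G20290 (S8) at 346 CPM per kb, EMB2296 (L8) at 343, RPL4 (L4) at 315, SAC56 (L4) at 271, emb2386 (L19) at 269 and SAC52 (L10) at 259. The WT ranges of the first 3 overlapped (300.4 to 368 CPM per kb for AT5G20290, 298 to 369.9 for EMB2296 and 296 to 348 for RPL4), so these neighbours do not differ beyond their spread. RPL4 lay above SAC56 in every WT library (267 to 275 CPM per kb for SAC56), while SAC56 overlapped with emb2386 (261 to 277) and emb2386 with SAC52 (199 to 344). The least abundant gene was AT5G59240, the other S8 paralog, at 0.914 CPM per kb in WT. Of these 7 genes, 6 were called higher in phod1, and SAC52 was not (log2 fold change 0.82, SE 0.254, Benjamini-Hochberg adjusted p = 0.0617 with edgeR).

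Among large subunit proteins, L4 lines the wall of the exit tunnel, and both of its genes rose. RPL4 (AT5G02870) stood at 576, 489 and 499 CPM in WT 1 to 3 and at 920.1, 846 and 952 CPM in phod1 1 to 3. SAC56 (AT3G09630), known from a suppressor of the dwarf mutant acaulis5, stood at 442, 449 and 437 CPM in WT and at 639.8, 655 and 719 CPM in phod1. In both genes every phod1 library was above every WT library. The log2 fold changes were 0.80 (SE 0.0930, adjusted p = 0.00266) for RPL4 and 0.60 (SE 0.0706, adjusted p = 0.00276) for SAC56, from edgeR with Benjamini-Hochberg adjustment. EMB2296 (AT2G18020), named for the embryo lethality of its mutant, encodes L8, a protein close to the peptidyl transferase centre. It stood at 435, 424 and 351 CPM in WT and at 695, 656 and 735 CPM in phod1, without overlap, and its log2 fold change was 0.79 (SE 0.106, adjusted p = 0.00425). The libraries of AT4G36130, another L8 gene, were separate too, with a log2 fold change of 0.62 (adjusted p = 0.00995), and the third L8 gene, AT3G51190, was at 0 counts in all libraries.

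SAG24 (AT1G66580) had the smallest p of the 57 genes. It is RPL10C, a gene for L10, which sits at the tRNA site of the large subunit and joins late in its assembly. SAG24 stood at 119, 120.2 and 111 CPM in WT and at 213, 216 and 234 CPM in phod1, so that its lowest phod1 library was well above its highest WT library. Its log2 fold change was 0.92 (SE 0.0770, adjusted p = 0.000851). The other L10 genes, SAC52 and RPL10B, were not called. RPL10B was the least abundant of the 3 and varied most, over 2.03 to 13.8 CPM among WT libraries and 5.22 to 17.5 CPM among phod1 libraries.

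BBC1 (AT3G49010), a gene for L13, stood at 120.5, 116 and 102 CPM in WT and at 194, 195 and 215 CPM in phod1. RPL18C (AT5G27850), a gene for L18, stood at 132, 135 and 115 CPM in WT and at 211, 215 and 228 CPM in phod1. AT3G11250 encodes P0, the base of the stalk that recruits translation factors, and stood at 38.5, 35.2 and 35.5 CPM in WT and at 58.3, 57.8 and 62.9 CPM in phod1. None of these 3 genes overlapped between genotypes, and each varied little among the libraries of a genotype. Their log2 fold changes were 0.84 (SE 0.0951, adjusted p = 0.00244) for BBC1, 0.77 (SE 0.0891, adjusted p = 0.00258) for RPL18C and 0.71 (SE 0.0882, adjusted p = 0.00321) for AT3G11250. AT3G09200, another P0 gene among the 60, ranged from 154 to 358 CPM among WT libraries and from 438 to 833 CPM among phod1 libraries and was not called (log2 fold change 1.02, adjusted p = 0.125), and neither was AT2G40010, a P0 gene outside the 60 (1.13, adjusted p = 0.185).

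The 5S ribonucleoprotein is built from the 5S RNA with L5 and L11. Both L11 genes among the 60 were called, AT3G58700 with a log2 fold change of 0.89 (adjusted p = 0.00563) and RPL16A with 0.87 (adjusted p = 0.0198). The L11 genes outside the 60, RPL16B (0.53, adjusted p = 0.0253) and AT5G45775 (0.89, adjusted p = 0.00474), were called higher too. Neither L5 gene was, at 0.53 for ATL5 (adjusted p = 0.0905) and 0.47 for RPL5B (adjusted p = 0.0624), although every phod1 library was above every WT library in both. RPL24A (L24) was called (0.67, adjusted p = 0.00943), while STV1, the L24 gene known for its part in reinitiation after upstream open reading frames, was not (0.53, adjusted p = 0.564). STV1 ranged from 41.2 to 82.3 CPM in WT, and in phod1 it stood at 27.8 CPM in phod1 1 against 109 and 129 CPM in phod1 2 and 3. The large subunit gene with the largest change was RPL7B (L7), which rose from 29.8, 41.5 and 32.8 CPM in WT to 68.6, 63.0 and 176 CPM in phod1 (log2 fold change 1.57, SE 0.443, adjusted p = 0.0475). Its phod1 3 library stood apart, and without it the log2 fold change was 0.92 (adjusted p = 0.0268).

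Among small subunit proteins, S2, S3 and S9 form the entry of the message channel. AT3G57490 (S2) stood at 24.1, 20.7 and 22.7 CPM in WT and at 57.8, 48.3 and 57.1 CPM in phod1. AT5G39850 (S9) stood at 9.05, 9.24 and 9.44 CPM in WT and at 22.6, 20.3 and 27.0 CPM in phod1. Both genes rose more than 2-fold without overlap, with log2 fold changes of 1.27 (SE 0.117, adjusted p = 0.00117) and 1.33 (SE 0.133, adjusted p = 0.00156). RS27A (AT3G61110), the S27 gene known for its role in the response to DNA damage, stood at 44.1, 44.3 and 42.6 CPM in WT and at 73.3, 68.7 and 79.1 CPM in phod1. It did not overlap either, and its log2 fold change was 0.76 (SE 0.0879, adjusted p = 0.00265).

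S6 is the ribosomal protein that S6 kinase phosphorylates downstream of TOR. Both S6 genes were called, EMB3010 with a log2 fold change of 0.61 (adjusted p = 0.00830) and RPS6 with 0.88 (adjusted p = 0.0290). Of the S10 genes, AT5G52650 (0.64, adjusted p = 0.00790) and RPS10B (0.54, adjusted p = 0.0175) were called and AT4G25740 was not (0.36, adjusted p = 0.0659). PFL, an S18 gene named after the pointed first leaf mutant, was not called (0.28, adjusted p = 0.449), nor was RPS13A, an S13 gene (0.36, adjusted p = 0.313). RPS5A, a gene known for its high level in dividing cells, and its paralog RPS5B were not called either. RPS5A stood at 83.1, 71.3 and 183 CPM in WT and at 100.5, 106 and 102 CPM in phod1, and RPS5B ranged from 28.0 to 71.6 CPM among WT libraries and from 38.1 to 91.4 CPM among phod1 libraries. In both genes the genotypes overlapped. P40 (RPSa) rose above every WT library in all phod1 libraries, which stood at 227, 200.5 and 467 CPM against 131 to 140 CPM in WT, and missed the threshold (log2 fold change 1.13, adjusted p = 0.0551), while without phod1 3 it passed (0.65, adjusted p = 0.0140).

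Genes that were not called were often those in which 1 library stood apart. In 14 of the 24 genes not called, at least 1 library was 2-fold or more from both others of its genotype, against 2 of the 33 called. Each of the 6 libraries was the one apart in some gene, so that no single library accounted for them. In EMB1080 and AT3G53890 a library was 8-fold or more apart. EMB1080 stood at 24.4, 30.9 and 22.8 CPM in WT and at 46.6, 13.8 and 1.26 CPM in phod1, with the lowest value in phod1 3 and the highest in phod1 1. Its log2 fold change was -0.34 (SE 1.06, adjusted p = 0.852), and 0.21 without phod1 3. The 9 genes with a library 3-fold apart were then set aside, a grouping chosen after the data were seen. Of the 48 left, 32 were called higher and 0 lower. The share called among all 9828 genes left by the same rule was not taken. A library far apart widens the spread that decides a call, so the contrast of 14 of 24 with 2 of 33 follows in part from the test itself. The part of neighbouring gene models in these values was not tested.

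The calls of 23 of the 33 genes held when any 1 library was left out. The other 10 were RPL7B, RPL16A, RPL18, RPL19B, RPS6, RPS10B, EVR1L1, AT5G20290, AT5G59240 and AT2G32060, whose adjusted p then reached at most 0.129 while every fitted change stayed above 0. Leaving out WT 1, 2 or 3 ended 4, 5 and 7 calls, and leaving out phod1 1, 2 or 3 ended 7, 4 and 8. Counts were 26 to 30 genes higher and 0 lower in these fits. Among the 11021 to 11073 genes tested in them, 1101 to 1351 were called higher and 1027 to 1180 lower.

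S9 was the family with the largest change, and its promoters are shown because its paralogs differed most in size of change among pairs with both genes called. AT5G15200 stood at 20.0, 66.9 and 20.6 CPM in WT and at 186, 336 and 459 CPM in phod1. Every phod1 library was above every WT library, and WT 2 lay more than 3-fold above both of its sisters. The log2 fold change was 3.19 (SE 0.638, adjusted p = 0.0158), and 4.01 without WT 2 (adjusted p = 0.00782). AT5G15200 gave 68.6% to 87.9% of the summed CPM of the S9 genes in WT and 89.1% to 94.5% in phod1. Its log2 ratio over AT5G39850 was 1.15, 2.86 and 1.12 in WT and 3.04, 4.05 and 4.09 in phod1, a difference of 2.02 (SE 0.669). An exact permutation test, two-sided, returned p = 0.1 for it, the smallest p with 3 libraries on each side. The neighbouring gene HB30 was not called (log2 fold change -0.07, adjusted p = 0.625). AT5G15190, the neighbour on the other side, was not analysed here, so that side could not be compared.

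The 250 bases before the annotated gene start were read from the RefSeq annotation of TAIR10.1 and are printed 5′ to 3′ on the strand of the gene. Capitals mark each TGGGCC or TGGGCT, the core of site II elements, and each AAACCCTA, a telo-box, on either strand, where a match on the opposite strand appears as its reverse complement. Overlapping matches were each counted. The windows lie at chr5:4936430-4936679 (minus strand) for AT5G15200 and at chr5:15949660-15949909 (plus strand) for AT5G39850, and hold no annotated exon. The L13 genes BBC1, at chr3:18168701-18168950 (minus strand), and AT5G23900, at chr5:8065551-8065800 (minus strand), are shown beside them as a pair in which only BBC1 was called. All 4 were chosen after their values were seen.
AT5G15200: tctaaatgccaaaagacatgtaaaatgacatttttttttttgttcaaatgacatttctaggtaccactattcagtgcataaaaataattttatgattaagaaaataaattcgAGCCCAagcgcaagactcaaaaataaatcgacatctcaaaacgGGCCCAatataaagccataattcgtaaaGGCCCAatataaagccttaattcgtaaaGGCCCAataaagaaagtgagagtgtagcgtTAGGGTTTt
AT5G39850: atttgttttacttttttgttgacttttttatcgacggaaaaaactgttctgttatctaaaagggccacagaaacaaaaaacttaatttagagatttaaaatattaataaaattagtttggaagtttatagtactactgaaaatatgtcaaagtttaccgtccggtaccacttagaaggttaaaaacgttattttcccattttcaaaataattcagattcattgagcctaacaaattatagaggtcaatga
BBC1: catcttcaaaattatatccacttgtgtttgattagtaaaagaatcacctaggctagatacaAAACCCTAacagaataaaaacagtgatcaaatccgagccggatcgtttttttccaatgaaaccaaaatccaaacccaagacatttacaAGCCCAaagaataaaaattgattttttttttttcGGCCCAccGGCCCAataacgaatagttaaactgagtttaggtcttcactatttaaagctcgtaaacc
AT5G23900: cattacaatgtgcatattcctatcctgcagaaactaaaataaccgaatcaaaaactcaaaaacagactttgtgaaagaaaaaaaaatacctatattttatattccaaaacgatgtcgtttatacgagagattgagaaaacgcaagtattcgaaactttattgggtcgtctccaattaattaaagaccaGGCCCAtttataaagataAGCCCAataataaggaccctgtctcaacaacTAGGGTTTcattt
AT5G15200 held 4 site II cores and 1 telo-box, which lies at the gene start, and AT5G39850 held 0 of either. BBC1 held 3 site II cores and 1 telo-box, and AT5G23900 held 2 and 1. AT5G23900 was not called (log2 fold change 0.27, adjusted p = 0.101 with edgeR), although every phod1 library was above every WT library. The part of these motifs in the levels of the 4 genes was not tested.

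Over all 60 genes, TGGGCC or TGGGCT was found in 65.0% of the windows, against 19.2% of the windows of 27443 protein-coding genes. The shares were 71.0% for large and 58.6% for small subunit genes. AAACCCTA was found in 18.3% of the 60 windows and in 4.49% of all windows. Genes called higher and genes not called held either site II core about equally often, 63.6% of 33 and 62.5% of 24. TGGGCC alone was in 60.6% and 45.8% of them and TGGGCT in 39.4% and 41.7%, differences that were not tested. Either core was also found in 69.8% of the windows of other cytosolic ribosomal protein genes. The share was 55.6% for ribosome biogenesis genes and 37.5% for plastid ribosomal protein genes. A match describes the letters of the window and is not a shown site of binding.

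Paralogs of a protein moved in the same direction or were not called, and in none was a gene called higher and its paralog lower. The 24 families with at least 2 measured genes among the 60 gave 30 pairs, of which 11 had both genes called higher, 15 had 1 called and 4 had neither. In 23 pairs the same paralog was the more abundant in all 6 libraries, by counts not set per length. The difference of the log2 ratio between genotypes was below 0.5 in size in 21 pairs, with a median size of 0.32. The ratio did not overlap between genotypes in 10 pairs, and each of these 10 reached p = 0.1 in an exact permutation test, the lowest value possible here, or 0.3 after Benjamini-Hochberg adjustment over the 30 pairs. No difference between paralogs therefore passed a test in this design. The sources used here do not say how the authors' counting divided fragments between near-identical paralogs, so ratios between paralogs are uncertain.

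**Figure D3:**
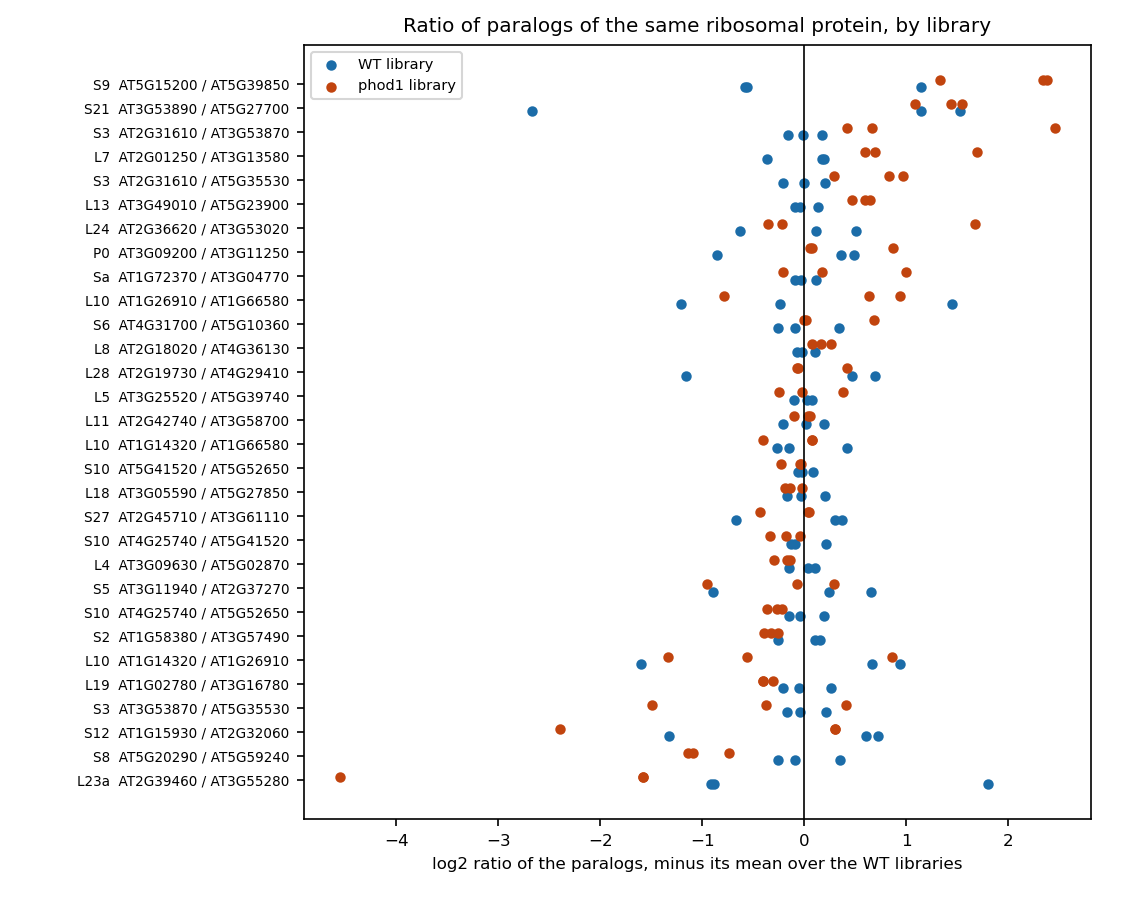
Log2 ratio of the first over the second paralog in each library, less its mean over the WT libraries, for 30 pairs ordered by the difference between genotypes, with WT libraries in blue and phod1 libraries in orange. The S9 pair at the top lies to the right in phod1 by 2.02 on average and the L23a pair at the bottom lies to the left by 2.57, where a WT and a phod1 library stand far from the others.

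In 4 pairs the difference was at least 1 in size, in S9 (above), L23a, S21 and S3. The L23a protein sits at the mouth of the exit tunnel. RPL23AA stood at 269.8, 259.8 and 229 CPM in WT and at 35.7, 271 and 324 CPM in phod1, and RPL23AB at 58.5, 8.77 and 50.7 CPM in WT and at 98.8, 95.1 and 113 CPM in phod1. RPL23AA was low in phod1 1 alone and overlapped, while RPL23AB was low in WT 2 and higher in every phod1 library. Their log2 ratio was 2.20, 4.89 and 2.18 in WT and -1.47, 1.51 and 1.51 in phod1, a difference of -2.57 (SE 1.34). Neither gene was called (RPL23AA -0.27, adjusted p = 0.830, and RPL23AB 1.38, adjusted p = 0.181), but RPL23AB was without WT 2 (0.91, adjusted p = 0.0125).

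In S21, AT3G53890 stood at 0.875, 18.6 and 24.5 CPM in WT and at 32.1, 32.3 and 30.5 CPM in phod1. EVR1L1 stood at 21.1, 31.8 and 32.3 CPM in WT and at 44.8, 42.0 and 54.5 CPM in phod1. Both were lower in every WT library than in any phod1 library, WT 1 was far below its sisters in AT3G53890, and the ratios overlapped (difference 1.36, SE 1.35). The log2 ratio was -4.59, -0.78 and -0.40 in WT and -0.48, -0.38 and -0.84 in phod1, so the difference rested on WT 1. EVR1L1 was called (log2 fold change 0.73, SE 0.204, adjusted p = 0.0460) and AT3G53890 was not (1.11, SE 0.980, adjusted p = 0.466).

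In S3, AT2G31610 stood at 24.7, 29.9 and 29.7 CPM in WT and at 75.7, 46.6 and 72.6 CPM in phod1. AT3G53870 stood at 97.8, 94.0 and 106 CPM in WT and at 48.6, 104 and 192 CPM in phod1, and AT5G35530 at 82.5, 86.7 and 74.7 CPM in WT and at 112, 111 and 118 CPM in phod1. AT2G31610 and AT5G35530 were separate between genotypes, while the phod1 libraries of AT3G53870 lay on both sides of the WT libraries. The log2 fold changes were 1.21 (SE 0.212, adjusted p = 0.0102) for AT2G31610, 0.48 (SE 0.0869, adjusted p = 0.0110) for AT5G35530 and 0.21 (SE 0.468, adjusted p = 0.787) for AT3G53870. The log2 ratio of AT2G31610 over AT3G53870 differed by 1.18 (SE 0.651), and by 0.54 without phod1 1, while that over AT5G35530 differed by 0.70 (SE 0.239).

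The L13, L7 and S8 pairs were among those with smaller but separate differences. The separate differences of L19 (-0.38), S2 (-0.33) and S10 (AT4G25740 over AT5G52650, -0.28) were smaller still. The log2 ratio of BBC1 over AT5G23900 was 0.86, 1.04 and 0.82 in WT and 1.50, 1.38 and 1.55 in phod1, a difference of 0.57 (SE 0.0864) that lay outside the spread of both genotypes. In L7 the ratio of RPL7B over AT3G13580 differed by 1.00 (SE 0.395), and by 0.65 without phod1 3. In S8 the ratio of AT5G20290 over AT5G59240 differed by -0.99 (SE 0.223). AT5G59240 rose from 0.673, 0.747 and 1.03 CPM in WT to 2.53, 1.80 and 2.49 CPM in phod1 (log2 fold change 1.48, SE 0.283, adjusted p = 0.0137). Its WT values lay near the floor of 3 fragments, 0.256 to 0.404 CPM in WT, so its call and the S8 ratio rest on few fragments. AT5G20290, which gave 99.5% to 99.8% of the family's summed CPM, rose with a log2 change of 0.49 (SE 0.102, adjusted p = 0.0175).

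Totals per protein do not depend on how fragments were divided among the genes that are added. With the counts of all listed genes of a family that have a row added, including 25 genes outside the 60, 16 of 31 family totals were called higher (14.6% of that table) and 0 lower (12.8%), 9 of 16 large and 7 of 15 small. In 22 families every phod1 library was above every WT library, the fitted change was above 0 in 29, and the median log2 fold change was 0.67. The largest was S9 (2.96, SE 0.529, adjusted p = 0.0109), followed among called totals by L7 (1.16, adjusted p = 0.0426), Sa (1.11, adjusted p = 0.0491) and S2 (1.07, adjusted p = 0.00302). The calls of L7 and Sa were lost without any one of WT 1, WT 2, WT 3 and phod1 1 (adjusted p from 0.0575 to 0.127). Without phod1 3 the L7 total was at 0.73 and the Sa total at 0.65, below S2 at 1.00, so the order of these 3 rests on that library. The totals of L7, L13, S2 and S15 each leave out 1 listed gene that was not analysed here. Totals near or below 0 were S5 (0.0027), L23a (0.10), S11 (-0.07) and S15 (-0.45), none of them called. The S15 total, which leaves out RPS15, stood at 65.7, 58.1 and 41.0 CPM in WT and at 109, 3.25 and 9.07 CPM in phod1, so that phod1 1 was high and the other two low, and without phod1 1 it was called lower (-3.16, adjusted p = 0.0227). MPI7, whose gene model overlaps that of RPS15 by 7 bases, ranged from 139 to 167 CPM over the WT libraries and from 249 to 287 CPM over the phod1 libraries. The gene model of AT2G41835 overlaps that of AT2G41840, the S2 gene left out, by 7 bases as well. AT2G41835 ranged from 369 to 497 CPM in WT and from 522 to 583 CPM in phod1. It was not called (0.32, adjusted p = 0.122 with edgeR), while MPI7 was (0.81, adjusted p = 0.00410). The part of these neighbours in the totals was not tested.

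**Figure D4:**
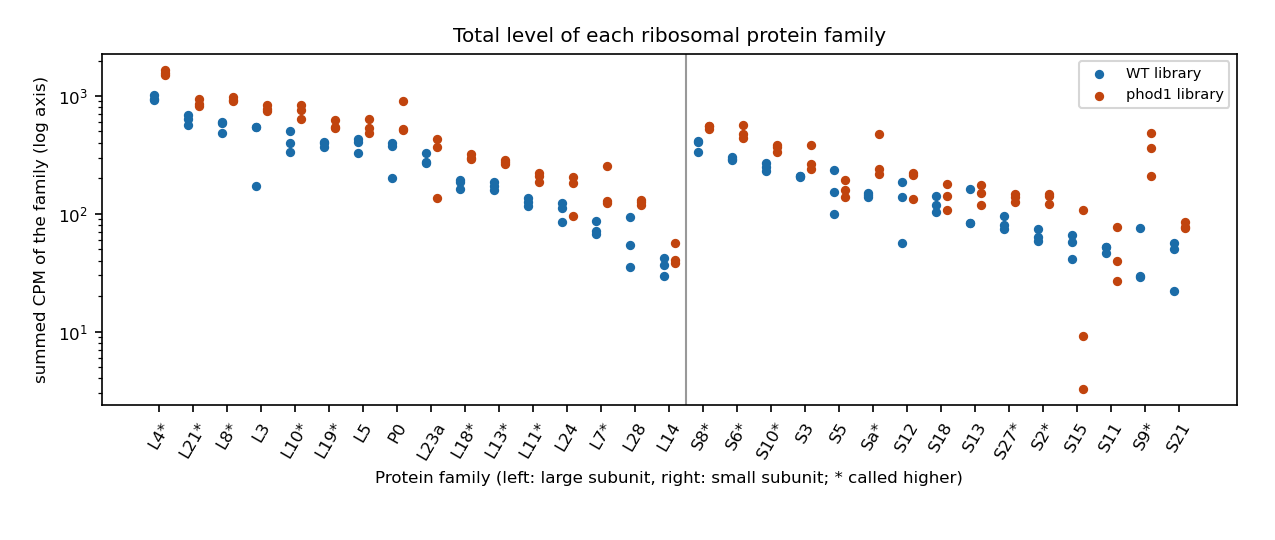
Summed CPM of each protein family per library on a log axis, large subunit on the left and small subunit on the right, with WT libraries in blue, phod1 libraries in orange and an asterisk at the 16 totals called higher. The phod1 points lie above the WT points in 22 families, and S15 has 2 phod1 libraries far below the rest.

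Many of the remaining genes of the cytosolic ribosome were called higher too. Of 149 other cytosolic ribosomal protein genes tested, 71 were called higher (47.7%, beside 14.6% of all genes), 1 lower (0.671%, beside 13.0%) and 77 neither, with a median log2 fold change of 0.56. Those with the smallest p were RACK1B (AT1G48630, 1.20, SE 0.0651), RACK1C (AT3G18130, 1.58, SE 0.114), both genes of the scaffold protein RACK1 on the small subunit head, and RPL12C (1.05, SE 0.0908). The gene called lower was AT3G28500, for the stalk protein P2 (-1.87, SE 0.536, adjusted p = 0.0495). It ranged from 0.939 to 1.997 CPM over WT libraries and from 0.209 to 0.641 CPM over phod1 libraries. Its lowest phod1 value lay under the floor of 3 fragments, 0.309 to 0.321 CPM in phod1, so the call rests on few fragments.

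Most of the genes tested that build ribosomes rose as well. Of 27 ribosome biogenesis genes tested, 21 were called higher (77.8%, beside 14.6% of all genes), 0 lower (beside 13.0%) and 6 neither, with a median log2 fold change of 1.23, above the median of 0.71 of the ribosomal protein genes, a difference that was not tested. NAP57, the pseudouridine synthase of the nucleolus, rose by 1.50 on the log2 scale (SE 0.0774), FIB2, a fibrillarin that methylates ribosomal RNA, by 2.29 (SE 0.143) and atBRX1-2, an assembly factor of the large subunit, by 1.70 (SE 0.116). Of 5 translation elongation genes tested, the eEF1A genes AT1G07920 (0.62) and AT1G07940 (0.51) were called higher and 0 lower. In the TOR and S6 kinase list S6K2 was called higher (2.19, SE 0.159), from 5.36 to 7.41 CPM over the WT libraries to 28.2 to 32.6 CPM over the phod1 libraries, and the other 4 of 5 were not called, TOR itself at -0.03 (adjusted p = 0.874).

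Many genes of the plastid ribosome fell. Of 28 nuclear genes for plastid ribosomal proteins tested, 17 were called lower (60.7%, beside 13.0% of all genes), 0 higher (beside 14.6%) and 11 neither, with a median log2 fold change of -0.61. EMB3113 fell by 0.73 (SE 0.0691), RPS9 of the plastid by 0.66 (SE 0.0706) and PRPL29 by 0.64 (SE 0.0774) on the log2 scale. With library totals as the scale 5 of the 28 were called lower.

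**Figure D5:**
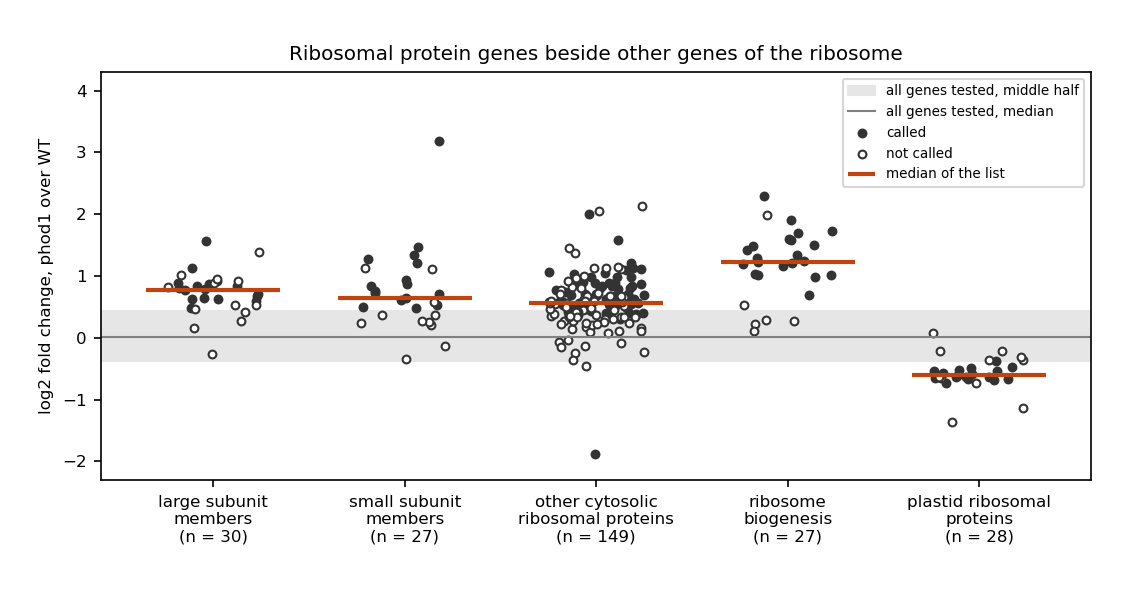
Log2 fold change of each tested gene in 5 lists, with filled points for called genes, bars at the medians (0.78, 0.64, 0.56, 1.23 and -0.61 from left to right) and a grey band for the middle 50% of all genes tested. The cytosolic ribosomal and biogenesis genes lie mostly above the band and the plastid ribosomal protein genes mostly below it.

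Marker genes of other cell states differed between the same libraries. In whole shoots, fewer cells of a type and less RNA per cell cannot be told apart. The summed level of 6 markers of dividing cells was 256 to 271 CPM over WT libraries and 134 to 162 CPM over phod1 libraries, with 3 of the 6 called lower and 0 higher. Of 3 shoot meristem markers, STM was called higher (from 2.41 to 2.76 CPM over WT libraries to 6.03 to 8.58 CPM over phod1 libraries, log2 fold change 1.52, SE 0.181, adjusted p = 0.00290), WUS was at 0 in all libraries and CLV3 reached at most 0.235 CPM. The 4 leaf markers summed to 98178 to 123946 CPM in WT libraries and to 59443 to 68507 CPM in phod1 libraries. Of 2 xylem markers, XCP1 was called lower, and the guard cell (2 genes) and phloem (1 gene) markers were not called. The part of these differences in the ribosomal protein result was not tested.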

How the data were processed

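Shoot RNA of 3 WT and 3 phod1 samples was column-purified, treated with DNase and sequenced by Illumina's method, per the labels. The authors' deposited count file holds expected counts (estimated, whole numbers, not normalized) for each gene in each sample. CASAVA 1.4, STAR and StringTie, with TAIR10 as the build, are listed without order in the submitters' processing notes. The strand setting and the annotation are not stated there. By the spacing of low values, a fragment was worth about 4 units. Although read counts had been planned for, the edgeR test was used on these expected counts. A second deposited file gives the authors' comparison, per the file headers: log2 fold changes and their errors, p-values (raw and adjusted), a test score and a mean normalized count signal. Only its log2 fold changes for the members are printed.

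Genes that passed filterByExpr (minimum count 10, minimum total 15) were scaled with TMM and fitted in edgeR 4.0.16 under R 4.3.3 (glmQLFit, then glmQLFTest with genotype alone, two-sided). Adjusted p-values follow Benjamini and Hochberg over the 10803 genes, with a threshold of 0.05. DESeq2 1.42.0 was an alternative. CPM are per TMM-scaled library size, ± is the SD over 3 libraries, and a log2 fold change divided by the square root of its F statistic gave its SE. Family totals replaced their genes in the whole table before the same fit. Log2 ratios of paralogs were compared by an exact permutation test. Promoter windows of 250 bases come from RefSeq's TAIR10.1, to which the printed coordinates belong, since the deposited table holds none. The fits were tested on simulated counts. Depth was 33183463 to 54720319 units, and 3 fragments, the floor, equal 0.256 to 0.404 CPM.

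The members and gene lists were chosen with earlier results of these data known. All 60 members could be named, with values in every library for the 10 called with the smallest p, those with a library 8-fold apart and pairs whose log2 ratio differed by at least 1, plus up to 3 called genes from each other list. Values beyond that rule, and the 4 promoters, were chosen after they were seen. Alternatives were DESeq2 size factors, library totals, no filter, the DESeq2 test, a replicate block, counts added before the ratios and leaving out each library. No 2 libraries were identical.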

Additional observations from a re-analysis of the deposited data

How the results depend on the processing

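The count of 33 members called higher became 33 with DESeq2 size factors, 41 with library totals as the scale, 31 with no filter, 37 with the DESeq2 test and 26 to 30 when 1 library was left out, and 0 members were called lower in any of these fits. With the replicate number as a block it was 16 (9 large, 7 small), beside 26 other cytosolic ribosomal protein genes higher, 10 plastid genes lower, and 788 genes higher and 712 lower in all. Deviations of same-numbered libraries correlated at -0.0092, -0.058 and 0.0034, which gave no sign of pairing by number. With 3 libraries per genotype these values cannot decide whether the samples were matched. With library totals 5 plastid genes were lower, 3544 genes were higher and 618 lower in all, and the medians were 1.09 (members), 1.16 (large) and 1.02 (small), a shift that all genes shared (0.39). The large subunit median was 0.64 to 0.80 when 1 library was left out, lowest without WT 3. Family totals called lower numbered 0 to 1, the 1 being S15 without phod1 1. Of 33 member calls 15 held in every fit, and of 16 family calls 9 did. The fitted change turned sign in uncalled members and totals alone. When 1 library was left out, AT4G27090 ranged from -0.10 to 0.33, AT2G39460 (RPL23AA) from -0.72 to 0.23, AT3G53870 from -0.37 to 0.58, AT3G11940 (RPS5A) from -0.37 to 0.41, AT2G37270 (RPS5B) from -0.19 to 0.56, AT3G48930 (EMB1080) from -1.79 to 0.21 and AT1G15930 from -0.22 to 0.80. The totals of L23a, S5, S11 and S15 then ranged from -0.22 to 0.46, -0.26 to 0.36, -0.59 to 0.20 and -3.16 to 0.093. With library totals AT2G39460 was at 0.11, AT3G11940 at 0.23, AT3G48930 at 0.057 and S11 at 0.31. With the block AT3G11940 was at 0.0042 and L23a at -0.040, and S5 was at -0.014 with DESeq2 size factors, at -0.013 with the DESeq2 test and at -0.0042 with no filter. The cause of these changes of sign was not tested. Paralog ratio differences with separate genotypes or of at least 1 kept their sign under every library left out and with 0.5 or 4 counts added. Their size was not always kept, as in S21, where the difference rested on WT 1.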
